A study of Drosophila melanogaster with 16 samples.

Results

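The odorant-binding proteins of Drosophila melanogaster are encoded by the Obp genes, of which 51 were found among the 17753 genes of the deposited abundance tables. A gene belonged to the family if its FlyBase symbol was Obp followed by a digit. Of the 51 genes, 30 reached 10 estimated counts in at least 1 of the 16 libraries and are described by name. The other 21 stayed under that minimum in every library. Genes of the same protein family with other symbols, such as lush, were not chosen by this rule.

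The libraries held polyadenylated RNA from whole embryos. Wild-type OregonR, a standard laboratory strain, was sampled at 14 to 17 h of embryogenesis (n = 5, here called late wild type) and at 2 to 4 h (n = 3, early wild type). The mutants were ORC4 (n = 4) and the transheterozygote ORE50/ORC4 (n = 4), both at 14 to 17 h. Both genotypes carry mutant alleles of Lola-I, an isoform of the transcription factor gene lola that the study describes as a pioneer factor at promoters where RNA polymerase II pauses. The ORC4 allele is shared by both mutant groups. The nature of the alleles, the number of embryos in a sample and the way mutant embryos were picked are not given in the sources used here. The labels name no treatment other than the bleach used to remove the eggshell.

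Odorant-binding proteins are small secreted proteins that carry hydrophobic ligands. They are best known from the lymph that bathes olfactory and gustatory neurons, where support cells release them, and many are also made outside chemosensory organs, in glia, fat body, gut and the male reproductive tract. Subfamilies are told apart by conserved cysteines: Plus-C members such as Obp46a, Obp47b and Obp49a carry extra ones, and Minus-C members such as Obp44a and Obp99a lack some. Embryos at 14 to 17 h are forming larval sense organs, while embryos at 2 to 4 h precede organ formation.

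The totals of estimated counts were 28717036, 28885871 and 32521626 in late wild-type replicates 1, 2 and 3, and 10388386 and 10202584 in replicates 5 and 6. They were 27298377 to 28832013 in ORC4, 9025882 to 13226262 in ORE50/ORC4 and 14472809 to 31783930 in early wild type. The ORC4 libraries were thus all deep and those of ORE50/ORC4 all shallow, and depth and genotype cannot be told apart where the mutants are compared with each other. Against wild type, each mutant was also compared with the wild-type libraries of its own depth. A count of 0 allows up to 3 counts, which is 0.0922 CPM (a count relative to the total of its library) in the deepest and 0.332 CPM in the shallowest library, counting error only. The lola gene, measured over all isoforms together, was at 36.7 to 47.0 TPM (a level adjusted for gene length and sequencing depth) in late wild type, at 39.2 to 61.3 in ORC4 and at 26.1 to 36.8 in the transheterozygote. Its log2 fold change was 0.17 in ORC4 (edgeR adjusted p = 0.31) and -0.42 in ORE50/ORC4 (edgeR adjusted p = 0.0117). These values do not check the labels, because Lola-I was not measured apart from the other isoforms.

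The family is spread over the X chromosome and both arms of chromosomes 2 and 3 in the BDGP6 assembly. There were 29 members on 2R, 12 on 3R, 6 on X, 2 on 2L and 2 on 3L. With neighbours at most 20 kb apart taken as a cluster, 33 members lay in 10 clusters and 18 stood alone. The length listed for each of the 51 genes was its whole genomic span, introns included. Reads in a span shared by overlapping genes could therefore be assigned to either gene, which touched 15 members, 8 of them among the 30 named. The named members with such an overlap are Obp44a, Obp47b, Obp57d, Obp73a, Obp83cd, Obp83ef, Obp84a and Obp99c, and their values are uncertain to that extent. Fractional counts, which reads shared between genes can give, were not equally frequent among them. They occurred in 5 libraries for Obp44a, 13 for Obp47b, 8 for Obp57d, 3 for Obp73a and 16 for Obp84a. For Obp83cd, Obp83ef and Obp99c they occurred in 0 libraries.

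Late wild-type embryos contained abundant RNA of a few family members. Summed over the family, the level was 1619.6 ± 134.6 TPM (SD, n = 5). Obp83g (FBgn0046875, 3R, 6111671 to 6112302) took 31.8% of it ± 4.09 (SD, n = 5) and had the highest level per length, 517 ± 99.3 TPM (SD, n = 5). Obp44a (FBgn0033268, 2R, 8134170 to 8135315), a Minus-C protein made by glia of the larval nervous system, followed with 366 ± 48.1 TPM (SD, n = 5). Obp28a (FBgn0011283, 2L, 7496791 to 7497365), an abundant protein of the adult antenna, had 145 ± 16.7 TPM and Obp99a (FBgn0039678, 3R, 29671657 to 29672334) 140 ± 49.9 TPM (SD, n = 5 each). Below them came Obp83cd at 92.2 ± 7.91, Obp56d at 71.5 ± 12.1, Obp56a at 60.0 ± 38.8, Obp47b at 57.6 ± 6.27 and Obp56h at 57.1 ± 4.87 TPM (SD, n = 5 each). Apart from Obp44a and Obp28a, members next to each other in this order overlapped in range across the 5 libraries.

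The next members in the order were Obp99c (19.5 TPM), Obp49a (15.7), Obp83ef (15.7), Obp56b (12.2), Obp57d (10.1) and Obp18a (9.43 TPM). The other 15 named members had late wild-type means between 0 and 4.77 TPM. TPM was computed over whole gene spans, which understates genes with long introns. Per kilobase of exon, Obp83g and Obp44a kept ranks 1 and 2, Obp83cd moved from rank 5 to rank 3, Obp99c from 10 to 5, and Obp28a from 3 to 6.

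Early wild type had another composition. The summed level was 638.4 ± 76.8 TPM (SD, n = 3) with Obp73a left out, and Obp99a supplied 95.2% of it ± 0.588 (SD, n = 3). Obp99a was at 593, 540 and 691 TPM in the 3 early libraries. The 5 late wild-type libraries had 116, 226, 132, 124 and 99.4 TPM, all below the early ones. The log2 fold change from early to late was -2.12 (SE 0.23, edgeR quasi-likelihood test, adjusted p = 8.52e-06).

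**Figure D1:**
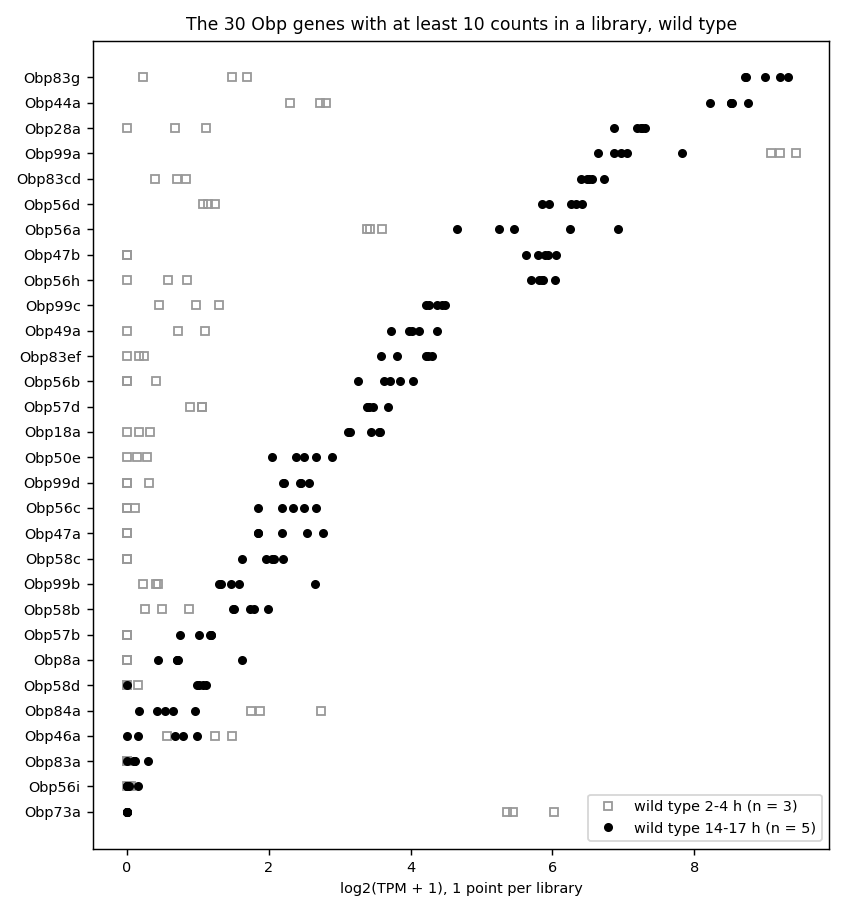
Levels of the 30 Obp genes with at least 10 counts in a library, in wild-type embryos. Each row is a gene, ordered by its late mean, each symbol is 1 library and the axis is log2(TPM + 1). Squares are embryos of 2 to 4 h (n = 3) and dots embryos of 14 to 17 h (n = 5). Most genes lie near 0 early and are spread over the axis late, while Obp99a, Obp73a and Obp84a are higher early. Obp73a overlaps Ogdh and Cpr73D, and its direction turns in the sum with them.

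Most other members rose between the stages. Of 25 members tested, 22 were higher at 14 to 17 h and 3 lower, and none missed the threshold (edgeR adjusted p under 0.05). Among all 11636 genes tested, 48.1% were higher and 41.8% lower, 89.9% in either direction. The median log2 fold change was 5.86 over the members and 0.18 over all genes tested. With the 5 members that were at 0 in all libraries of a stage set to their bound, the median of the members was 4.97. Members enter the test largely through the stage where they are high, so these counts describe the genes that could be tested and not the whole family. The counts include Obp44a, Obp47b and Obp73a, whose sign turned in the sum with their overlapping genes, as given below. The 5 named members not tested between the stages were Obp46a, Obp56i, Obp58d, Obp83a and Obp8a.

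Obp44a rose from 6.0, 3.95 and 5.63 TPM in the early libraries to 298 to 434 TPM in the late ones, a change of 6.10 on the log2 scale (SE 0.21, edgeR adjusted p = 3.12e-09). The sum of Obp44a with Pabp2, a gene overlapping it, was not called (-0.12, edgeR adjusted p = 0.271). Pabp2 alone went from a mean of 250 CPM early to 81.2 CPM in late wild type. The sum cannot tell opposite changes of these genes from a shift of reads between them, and neither was tested. Obp83cd, whose product joins a pair of odorant-binding domains in a single chain, rose by 7.39 (SE 0.21, edgeR adjusted p = 1.03e-09). Obp56d, found in adult olfactory and taste organs, rose by 5.86 (SE 0.25, edgeR adjusted p = 1.08e-08). The smallest rises were those of Obp58b (2.35), Obp56a (2.58), Obp99b (3.08) and Obp57d (3.33 on the log2 scale). The values of Obp57d cannot be told apart from those of Cpr57A, a gene with the same span. Of the higher members Obp56a had the highest level in each early library, at 9.79, 11.1 and 9.44 TPM.

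Several members had 0 counts in all 3 early libraries. Against a floor of 3 counts over the group, late wild type was at least 372-fold higher for Obp47b, at least 20.7-fold for Obp58c, at least 15.6-fold for Obp47a, at least 8.36-fold for Obp57b, at least 5.34-fold for Obp8a and at least 2.32-fold for Obp83a. Obp8a and Obp83a were not tested. For Obp47b the sum with the overlapping gene CG7741 was lower late than early (log2 fold change -0.57, edgeR adjusted p = 3.03e-05). The fitted folds of Obp18a, Obp28a, Obp49a, Obp50e, Obp56b, Obp56c, Obp56h, Obp83ef, Obp83g and Obp99d rest on few early counts. They moved by over 1.5 times when early replicate 1 or 3 was left out, with every call kept, and are not given. Their early means were at most 1.40 TPM, the value of Obp83g.

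Apart from Obp99a, Obp56a and Obp44a, whose early levels are given above, members described below for the mutants were scarce in early replicates 1, 2 and 3. Obp83g was at 2.24, 1.8 and 0.168 TPM there. Obp56d had 1.22, 1.37 and 1.10 TPM, and Obp57d 1.08, 0.852 and 1.08 TPM. The values of both were thus even over the 3 libraries. Those of Obp57d equalled those of Cpr57A, so they do not show that Obp57d itself was detected. For Obp28a the values were 0.596, 0 and 1.16 TPM, for Obp49a 0.642, 0 and 1.15, and for Obp56h 0.496, 0 and 0.807. Obp18a was at 0.127, 0 and 0.248 TPM, Obp83ef at 0.188, 0.130 and 0, and Obp56c at 0, 0 and 0.0783. Of these 6 genes, 5 had no count in replicate 2, the early library with the lowest total count.

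The remaining lower members were Obp84a and Obp73a. Obp84a, an antennal protein of the adult, went from 2.35, 5.68 and 2.69 TPM to 0.125 to 0.949 TPM (log2 fold change -2.88, SE 0.50, edgeR adjusted p = 0.000307). Its sum with the overlapping gene Dtwd2 was lower too (-0.72, edgeR adjusted p = 0.00177). Obp73a (FBgn0036681, 3L, 16944361 to 16954942) was listed at 0 in all 13 libraries of 14 to 17 h and at 40.0, 64.1 and 42.7 TPM in the early ones. Its span of 10582 bases, of which 905 are exonic, overlaps Ogdh, which encodes a subunit of the oxoglutarate dehydrogenase complex, and Cpr73D. The sum of Obp73a, Ogdh and Cpr73D was 467 ± 51.3 CPM early (SD, n = 3) and 582 ± 21.0 CPM in late wild type (SD, n = 5), of which Obp73a took 47.6% early and 0.0% late. The direction given for Obp73a turns in that sum (log2 fold change 0.30, edgeR adjusted p = 0.00492), so no fold is given for the gene alone.

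At 14 to 17 h the mutants had another composition of the family. The summed level was 1542.5 ± 58.3 TPM in ORC4 embryos and 1764.4 ± 164.8 TPM in those of ORE50/ORC4 (SD, n = 4 each). By library it ran from 1485.1 to 1808.7 TPM in late wild type, 1459.5 to 1596.1 in ORC4 and 1564.0 to 1967.4 in the transheterozygote, so the groups overlapped. Obp83g took 45.5% ± 5.42 of the sum in ORC4 and 62.6% ± 5.83 in the transheterozygote (SD, n = 4 each). Obp44a took 22.7% ± 2.89 in the wild-type embryos (SD, n = 5), 11.5% ± 2.31 in ORC4 and 6.9% ± 1.3 in the transheterozygote (SD, n = 4 each). The ranges of these shares did not overlap between wild type and either mutant for either gene. In whole embryos, fewer cells of a type and less RNA per cell cannot be told apart.

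In ORC4, 6 of the 24 members tested were lower than in wild type and 5 higher (edgeR adjusted p under 0.05). Among all 11431 genes tested, 17.2% were lower and 15.5% higher, 32.7% in either direction, against 45.8% of the tested members. The median log2 fold change was -0.22 over the members and 0.00 over all genes. In ORE50/ORC4, 10 of the 24 were lower and 5 higher, which is 62.5%. The background there was 27.0% lower and 27.0% higher, 54.0% in either direction, and the medians were -0.37 and 0.01. With 24 members these shares are descriptions, and nothing particular to the family is read from them. The same late wild-type libraries served in both comparisons, so they are not independent.

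All 6 members that were lower in ORC4 also fell in the transheterozygote, and all 5 that were higher also rose there. A further 4 were lower in ORE50/ORC4, and 9 were called in neither mutant. No member was called in opposite directions.

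**Figure D2:**
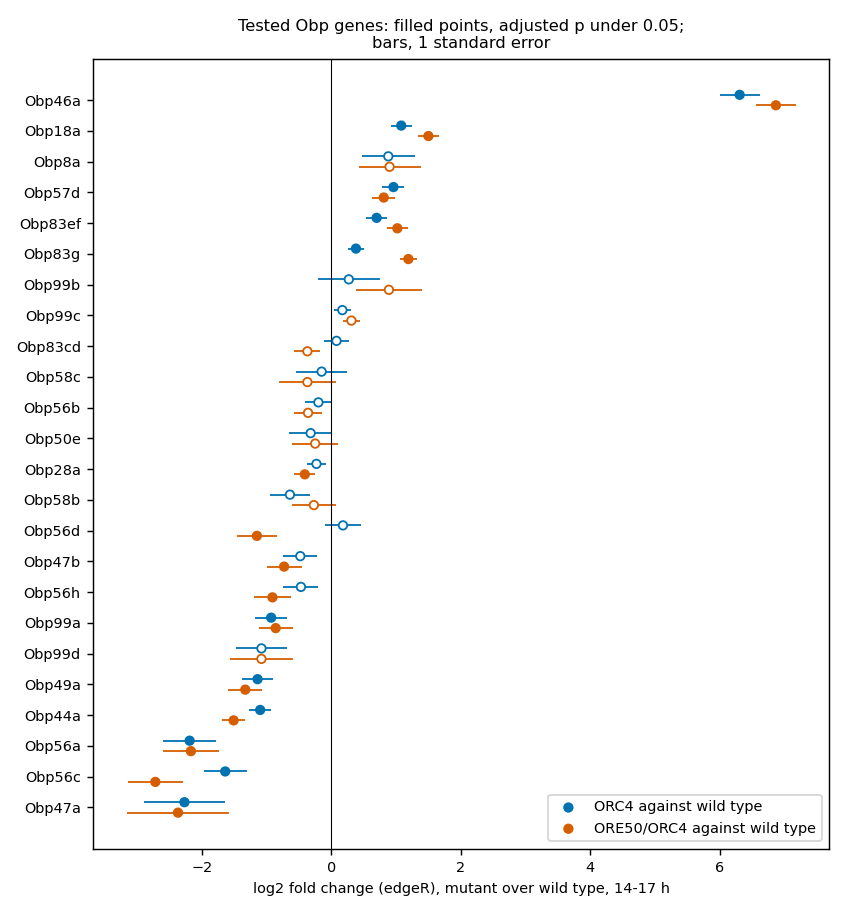
The log2 fold change of each of the 24 tested Obp genes against late wild type, from edgeR, for ORC4 (blue) and ORE50/ORC4 (orange). Bars are 1 approximate standard error, derived from the test statistic, and filled points have an adjusted p under 0.05. Obp46a lies apart at 6.31 and 6.87, and the lowest values are those of Obp47a, Obp56c and Obp56a.

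Obp44a was the member with the largest loss in absolute level. Late wild-type replicates 1, 2, 3, 5 and 6 had 434, 298, 367, 368 and 365 TPM, ORC4 replicates 1 to 4 had 188, 171, 222 and 131, and ORE50/ORC4 replicates 1 to 4 had 116, 106, 136 and 123. Every mutant library lay below every wild-type library. The log2 fold change was -1.10 in ORC4 (SE 0.17, edgeR adjusted p = 0.000341) and -1.51 in ORE50/ORC4 (SE 0.18, edgeR adjusted p = 1.76e-05). Obp44a overlaps Pabp2, which encodes a nuclear poly(A)-binding protein. The sum of both genes also fell, by 0.56 in ORC4 and by 0.41 in ORE50/ORC4 on the log2 scale (edgeR adjusted p = 0.000235 and 0.00126).

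Obp49a (FBgn0050052, 2R, 12690059 to 12690955), a Plus-C protein of taste sensilla through which bitter compounds damp the response to sugar in the adult, was lower in both mutants. It was at 15.3, 12.2, 16.3, 19.8 and 14.8 TPM in late wild type. The ORC4 libraries had 6.80, 7.43, 10.3 and 4.80 TPM, and those of ORE50/ORC4 had 5.41, 4.79, 7.32 and 5.88. No mutant library reached the lowest wild-type one. In ORC4 and ORE50/ORC4 the log2 fold changes were -1.14 (SE 0.24, edgeR adjusted p = 0.00303) and -1.33 (SE 0.26, edgeR adjusted p = 0.000937).

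Obp47a (FBgn0033573, 2R, 10909923 to 10910485) was measured near the limit of detection. Late wild-type libraries held 27, 12, 14, 6 and 8 counts of it, those of ORC4 2, 4, 7 and 1, and those of ORE50/ORC4 1, 0, 4 and 0. As TPM these were 5.83, 2.59, 2.60, 3.56 and 4.82, then 0.428, 0.934, 1.54 and 0.236, and 0.472, 0, 2.44 and 0. All mutant libraries were lower than all wild-type ones, ORE50/ORC4 replicate 3 by little. Fitted log2 fold changes were -2.27 (SE 0.63, edgeR adjusted p = 0.0146) and -2.37 (SE 0.79, edgeR adjusted p = 0.0216). Without ORE50/ORC4 replicate 3 the latter was -4.20. The call in ORE50/ORC4 was lost without replicate 1, 2 or 4 of that group and against wild-type replicates 1, 2 and 3, and both calls were lost over the libraries with shared replicate numbers, with or without the block. The ORC4 call was also lost with limma on log2(TPM + 0.1) (adjusted p = 0.0503). Over the alternatives the highest adjusted p was 0.0834 in ORC4 and 0.113 in ORE50/ORC4.

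Obp56a and Obp56c belong to a cluster of 6 members on 2R. Obp56a (FBgn0034468, 2R, 19697723 to 19698508) was at 121, 24.1, 37.1, 43.0 and 75.1 TPM in late wild type. In ORC4 the values were 10.3, 12.7, 11.3 and 21.1 TPM, and ORE50/ORC4 had 14.9, 13.2, 12.1 and 9.65. The wild-type libraries varied by several fold, with replicate 1 highest, and still all exceeded the mutant ones. Relative to late wild type the log2 fold changes were -2.19 (SE 0.41, edgeR adjusted p = 0.00131) and -2.17 (SE 0.43, edgeR adjusted p = 0.00101). The mutant levels were close to the 9.44 to 11.1 TPM of early wild type, a comparison that was not tested.

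Obp56c (FBgn0046879, 2R, 19699995 to 19701124) was at 4.05, 3.54, 4.65, 5.33 and 2.59 TPM in late wild type. ORC4 replicates 1 to 4 had 1.5, 1.55, 1.55 and 0.739 TPM, and those of ORE50/ORC4 had 0.369, 0.378, 1.19 and 0.420. The wild-type range lay above both mutants. On the log2 scale the fold changes were -1.64 (SE 0.33, edgeR adjusted p = 0.00219) and -2.72 (SE 0.42, edgeR adjusted p = 0.000169).

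Obp99a, the member that dominated the early embryo, was lower in both mutants than in late wild type. ORC4 had 63.5, 80.9, 58.0 and 105 TPM and ORE50/ORC4 106, 75.0, 48.3 and 60.3 TPM, against 99.4 to 226 in late wild type. The highest library of each mutant lay above the lowest wild-type library, and wild-type replicate 2 was highest. The log2 fold changes were -0.93 (SE 0.25, edgeR adjusted p = 0.013) and -0.86 (SE 0.26, edgeR adjusted p = 0.0126). With wild-type replicates 5 and 6 alone, the ORE50/ORC4 value was -0.58 and was not called (edgeR adjusted p = 0.117), and the call in ORC4 was also lost against these replicates.

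Of the members that rose, Obp46a (FBgn0033508, 2R, 10311172 to 10312023), a Plus-C gene, changed most. Its counts were 5, 1, 7, 3 and 0 in late wild type. As TPM these were 0.602, 0.120, 0.726, 0.992 and 0, while ORC4 had 41.9, 42.3, 37.7 and 47.8 TPM and ORE50/ORC4 66.8, 53.4, 47.3 and 57.4 TPM. The early libraries had 1.37, 0.476 and 1.79 TPM, so neither wild-type stage came near the mutant levels. The rises were 6.31 on the log2 scale for ORC4 (SE 0.31, edgeR adjusted p = 7.53e-09) and 6.87 for ORE50/ORC4 (SE 0.31, edgeR adjusted p = 3.62e-09). Among the named members it went from rank 27 of 30 in late wild type to a level near that of Obp47b, Obp56a and Obp56h in those wild-type embryos.

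Obp18a (FBgn0030985, X, 19135081 to 19135868) was at 9.88, 10.9, 10.8, 7.70 and 7.82 TPM in late wild type. The ORC4 libraries had 21.4, 18.3, 15.9 and 29.3 TPM, and those of ORE50/ORC4 had 24.2, 29.9, 23.8 and 24.5. All mutant libraries were higher than all wild-type ones. Fitted log2 fold changes were 1.08 (SE 0.16, edgeR adjusted p = 0.000187) and 1.5 (SE 0.16, edgeR adjusted p = 8.5e-06).

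Obp57d (FBgn0043536, 2R, 20548368 to 20550117), a gustatory gene whose loss alters the response of flies to fatty acids of a host fruit, could not be told apart from Cpr57A, a cuticle protein gene annotated with the same span and strand. Both genes had equal values in 16 of 16 libraries. Each was at 9.46, 9.62, 11.9, 9.54 and 10.1 TPM in late wild type. In ORC4 the values were 22.4, 18.1, 25.7 and 16 TPM, and ORE50/ORC4 had 13.9, 16.4, 20.8 and 15.9. The shared value was higher in every mutant library than in any wild-type library, by log2 fold changes of 0.96 (SE 0.17, edgeR adjusted p = 0.00101) and 0.81 (SE 0.18, edgeR adjusted p = 0.00201). The share that belongs to Obp57d cannot be told from these values.

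Obp83ef and Obp83g are neighbours in a cluster of 3 on 3R. Obp83ef (FBgn0046876, 3R, 6109642 to 6111034), which like Obp83cd encodes a double-domain protein, was at 18.0, 18.7, 17.6, 13 and 11 TPM in late wild type. ORC4 replicates 1 to 4 had 26.8, 20.6, 30.2 and 30.2 TPM, and those of ORE50/ORC4 had 30.6, 26.4, 32.9 and 30.6. No wild-type library reached a mutant one. Relative to late wild type the log2 fold changes were 0.70 (SE 0.16, edgeR adjusted p = 0.0048) and 1.02 (SE 0.16, edgeR adjusted p = 0.000203). Its span overlaps the end of that of the third cluster gene, Obp83cd (6108134 to 6109733). Obp83cd is transcribed from the other strand and was not called in either mutant. The sum of both was not called in either mutant (log2 fold changes 0.18 and -0.09, edgeR adjusted p = 0.467 and 0.681). Obp83ef made up 12.6% of the sum in wild type and 27.7% in ORE50/ORC4, and Obp83cd 87.4% in wild type. The sum thus follows mostly Obp83cd and says little about Obp83ef alone.

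Obp83g, already the most abundant member, was at 593, 641, 509, 424 and 419 TPM in late wild type. ORC4 had 700, 663, 626 and 815 TPM, of which the lowest was below wild-type replicate 2. ORE50/ORC4 had 1330, 1150, 850 and 1110 TPM, all above every other library. The log2 fold change in ORE50/ORC4 was 1.19 (SE 0.13, edgeR adjusted p = 7.9e-06). In ORC4 it was 0.38 (SE 0.13, edgeR adjusted p = 0.0358), and that call was lost without late wild-type replicate 3, 5 or 6 or without ORC4 replicate 1, 2 or 4. With wild-type replicates 1, 2 and 3 alone, whose total counts were similar to those of ORC4, the value was 0.23 (edgeR adjusted p = 0.182). The highest adjusted p over the alternatives was 0.381.

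**Figure D3:**
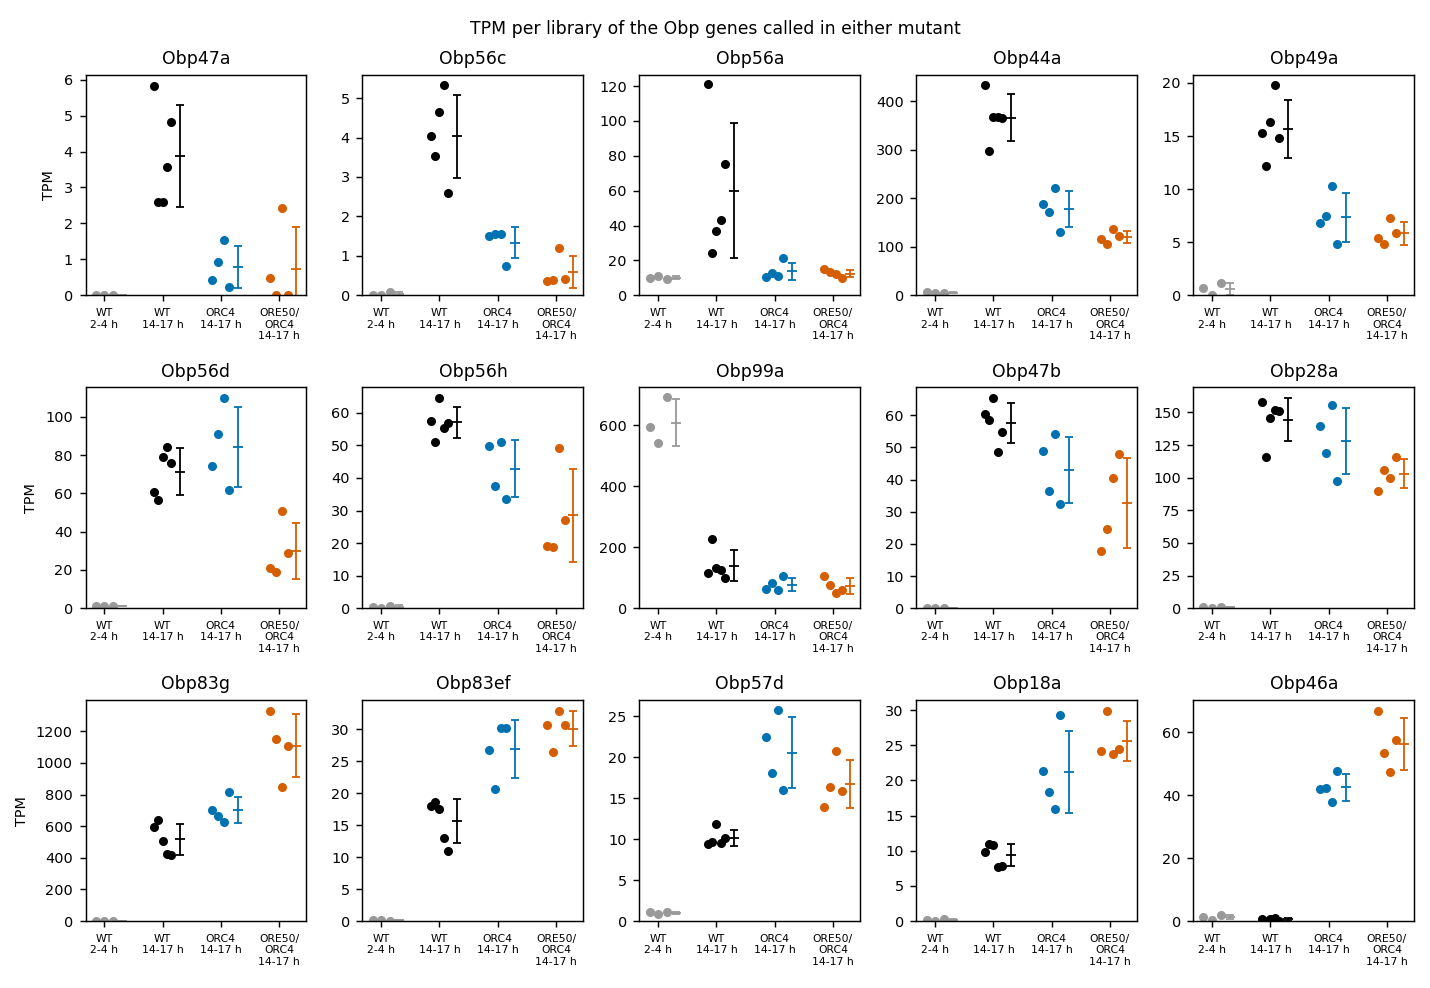
TPM in every library of the 15 Obp genes called in either mutant. Dots are libraries of early wild type (grey, n = 3), late wild type (black, n = 5), ORC4 (blue, n = 4) and ORE50/ORC4 (orange, n = 4), and each bar is the mean with 1 SD. The upper 2 rows hold the genes that were lower in a mutant and the lowest row those that were higher, where Obp46a goes from at most 0.992 TPM in late wild type to at least 37.7 in a mutant library.

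The 4 members called lower in ORE50/ORC4 and not in ORC4 were Obp28a, Obp47b, Obp56d and Obp56h. Obp56d (FBgn0034470, 2R, 19702924 to 19703915) was at 60.9, 56.6, 79.3, 84.4 and 76.1 TPM in late wild type and at 74.2, 91.2, 110 and 61.6 in ORC4. ORE50/ORC4 had 21.2, 18.9, 51.0 and 28.8 TPM, below every library of the other late groups. The log2 fold change in ORE50/ORC4 was -1.15 (SE 0.31, edgeR adjusted p = 0.00662) and in ORC4 0.18 (SE 0.28, edgeR adjusted p = 0.661).

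Obp56h (FBgn0034475, 2R, 19815554 to 19816204), a gene whose loss in adult males alters pheromones and mating speed, was at 57.4, 51.1, 64.6, 55.4 and 56.8 TPM in late wild type. The ORC4 libraries had 49.7, 37.4, 51.0 and 33.5 TPM, and those of ORE50/ORC4 had 19.0, 18.7, 49.2 and 27.2. ORE50/ORC4 replicate 3 stood nearest to wild type. On the log2 scale the fold changes were -0.47 in ORC4 (SE 0.27, edgeR adjusted p = 0.196) and -0.91 in ORE50/ORC4 (SE 0.28, edgeR adjusted p = 0.016). The call was lost without ORE50/ORC4 replicate 1 or 2 and, against wild-type replicates 5 and 6, at a value of -0.92 (edgeR adjusted p = 0.0733).

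Obp47b (FBgn0033614, 2R, 11302247 to 11302987) was at 60.3, 58.6, 65.4, 48.7 and 54.7 TPM in late wild type. In ORC4 the values were 49.0, 36.3, 54.3 and 32.5 TPM, and ORE50/ORC4 had 17.9, 24.5, 40.6 and 48.0. The ORE50/ORC4 libraries were all below the wild-type ones, replicate 4 by little. Its log2 fold change in ORE50/ORC4 was -0.73 (SE 0.27, edgeR adjusted p = 0.0356), and in ORC4 -0.48 (SE 0.26, edgeR adjusted p = 0.174). The call was lost without late wild-type replicate 1, 3 or 6 or ORE50/ORC4 replicate 1 or 2, against wild-type replicates 5 and 6 (-0.61, edgeR adjusted p = 0.204), and in the sum with the overlapping gene CG7741 (-0.35, edgeR adjusted p = 0.0722).

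Obp28a was at 158, 116, 146, 152 and 151 TPM in late wild type. ORC4 replicates 1 to 4 had 140, 119, 156 and 97.4 TPM, and those of ORE50/ORC4 had 89.5, 106, 100 and 116. The highest ORE50/ORC4 library and wild-type replicate 2 were both at 116 TPM. The log2 fold change in ORE50/ORC4 was -0.41 (SE 0.16, edgeR adjusted p = 0.0429). That call was lost without late wild-type replicate 1, 3, 5 or 6 or ORE50/ORC4 replicate 1, 2 or 3, and against wild-type replicates 5 and 6 (-0.51, edgeR adjusted p = 0.0516). In ORC4 the value was -0.23 (SE 0.15, edgeR adjusted p = 0.264).

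Each mutant was also compared with the wild-type libraries of similar total count, ORC4 with replicates 1, 2 and 3 and ORE50/ORC4 with replicates 5 and 6, so that no wild-type library was shared. There Obp46a had log2 fold changes of 6.32 and 6.80, Obp56a -2.18 and -2.19, Obp56c -1.64 and -2.73, Obp44a -1.08 and -1.55, Obp49a -1.03 and -1.51, and Obp18a 0.95 and 1.76, all called in both (edgeR adjusted p at most 0.0135). These values were close to those against all 5 wild-type libraries. In ORC4, the call of Obp83g was lost and Obp8a was called higher (1.18, edgeR adjusted p = 0.0299). In ORE50/ORC4, the calls of Obp28a, Obp47b, Obp56h and Obp99a were lost (edgeR adjusted p = 0.0516, 0.204, 0.0733 and 0.117). Obp47a had no fitted value there, and 5 members were lower, against 10 with all 5 wild-type libraries.

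Few family members were called between the mutants. Between ORE50/ORC4 and ORC4, 1 of the 24 members was lower and 1 higher (edgeR adjusted p under 0.05). Of all genes tested, 17.4% were lower and 19.9% higher, 37.3% in either direction. The median log2 fold change was -0.06 over the members and 0.03 over all genes. The lower member was Obp56d (-1.34, SE 0.32, edgeR adjusted p = 0.00569) and the higher was Obp83g (0.81, SE 0.13, edgeR adjusted p = 0.000581). For Obp28a, Obp47b and Obp56h, the difference between the mutants was not called (log2 fold changes -0.17, -0.25 and -0.44, edgeR adjusted p = 0.431, 0.51 and 0.261), so their calls in a single mutant do not show that the mutants differ. Obp46a (0.56, edgeR adjusted p = 0.054), Obp18a (0.42, 0.0557), Obp56c (-1.08, 0.0819) and Obp44a (-0.42, 0.0843) were nearer to the threshold. No equality of the mutants is shown for them. Without ORC4 replicate 4 there were 4 lower and 2 higher members, and without ORE50/ORC4 replicate 3 there were 5 lower.

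The 9 tested members called in neither mutant were Obp50e, Obp56b, Obp58b, Obp58c, Obp83cd, Obp8a, Obp99b, Obp99c and Obp99d. Their log2 fold changes ran from -1.08 (Obp99d) to 0.88 (Obp8a) in ORC4 and from -1.08 (Obp99d) to 0.90 (Obp8a) in ORE50/ORC4. Several of these have wide errors and no equality with wild type is shown. Obp99d (SE 0.40 and 0.48, edgeR adjusted p = 0.057 and 0.0726) was at 3.59 to 4.96 TPM in late wild type, 1.14 to 4.25 in ORC4 and 0.571 to 2.95 in ORE50/ORC4. Obp8a (SE 0.41 and 0.48, edgeR adjusted p = 0.12 and 0.125) held at most 13 counts in a library, and was called higher in both mutants without late wild-type replicate 5 (1.26 and 1.28, edgeR adjusted p = 0.0152 and 0.0248). Obp83cd was at 83.5 to 105 TPM in late wild type, 74.6 to 130 in ORC4 and 52.3 to 89.3 in ORE50/ORC4. Obp99c was at 17.7 to 21.4, 18.2 to 28.7 and 18.2 to 28.8 TPM.

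The other 6 named members were too low for the test at 14 to 17 h. Obp57b (FBgn0043534, 2R, 20504251 to 20505136) had 9, 6, 13, 4 and 4 counts in late wild type, 1, 1, 0 and 2 in ORC4 and 0 in all 4 libraries of ORE50/ORC4. A floor of 3 counts over that group puts the transheterozygote at least 4.9-fold lower. Obp56i had at most 2 counts in a late wild-type library, 10, 4, 7 and 8 in ORC4 and at most 3 in ORE50/ORC4. Obp83a, an antennal protein of the adult, had at most 3 counts in a late wild-type library, at most 11 in an ORC4 library and at most 5 in the transheterozygote. In the same order its means were 0.0908, 0.185 and 0.131 TPM. The ORC4 libraries were deeper, so raw counts of these genes do not compare the mutants. Obp58d reached 11 counts, and Obp84a and Obp73a were described with the stages.

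Of the 21 members under the minimum, Obp22a, Obp51a, Obp56f, Obp69a and Obp85a had 0 counts in all 16 libraries. The others had at most 9 counts in any library, the value of Obp50d. Many of these genes are known from adult tissues: Obp83b, Obp19a and Obp19d from the antenna, Obp59a from cells that sense humidity, and Obp22a, Obp51a, Obp56e, Obp56f and Obp56g from male seminal fluid. Obp50b and Obp50c share their span and had equal values in 16 of 16 libraries.

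Sums with overlapping genes differed from several values above. Summing a member with its overlapping genes kept the call of Obp44a in both mutants and, by construction, that of Obp57d. It turned the sign for Obp99c, whose span of 3576 bases (669 exonic) overlaps Gycalpha99B, a guanylyl cyclase subunit gene. Obp99c alone was not called in either mutant (log2 fold changes 0.17 and 0.31), while the sum was lower in both (-0.38 and -0.40, edgeR adjusted p = 0.00242 and 0.000898). Obp99c made up 43.7% of the sum in the wild-type embryos, 64.2% in ORC4 and 72% in the transheterozygote. Between the stages, the sum of Obp44a and Pabp2 was 252 ± 12.1 CPM early (SD, n = 3) and 236 ± 22.9 late (SD, n = 5), with Obp44a at 0.849% and 65.6% of it.

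**Figure D4:**
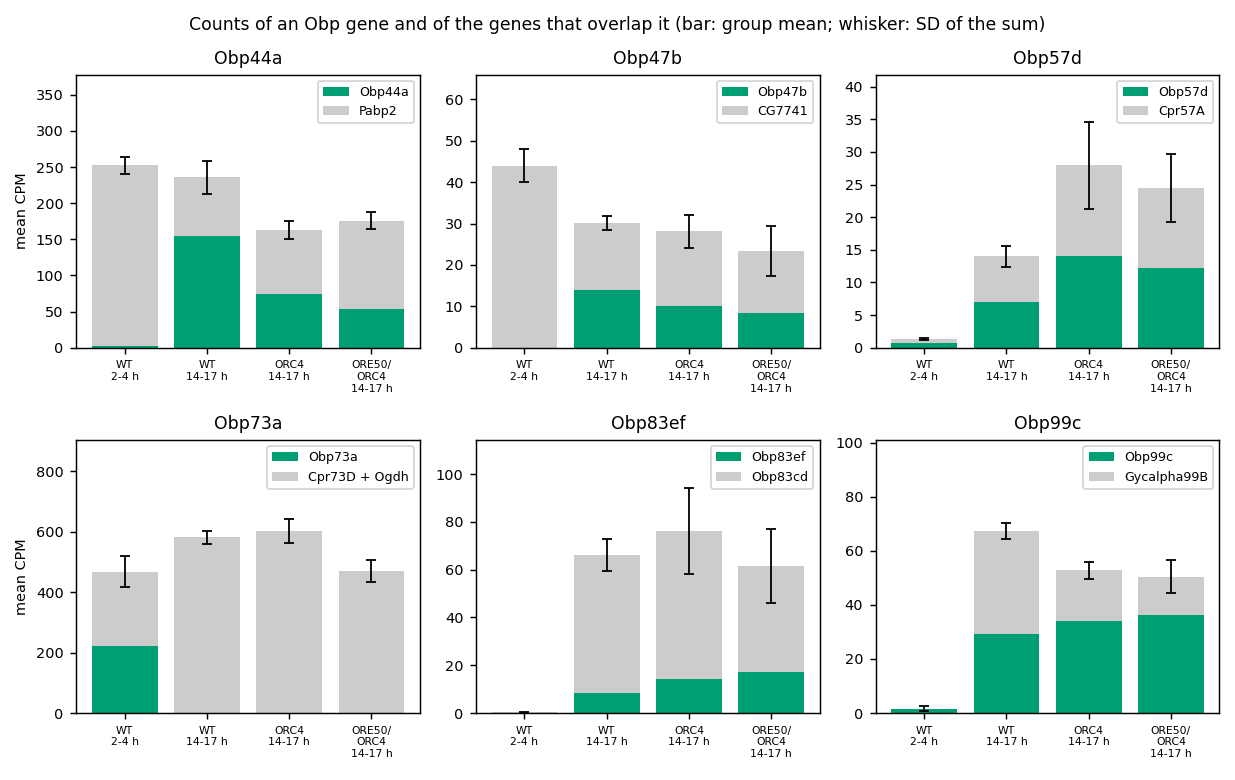
Mean CPM of 6 Obp genes (green), by group, with that of the genes whose span overlaps theirs (grey) stacked on top. Whiskers are the SD of the sum (n = 3 early, 5 late wild type and 4 in each mutant). The sum for Obp44a changes less than its green part between the stages, and Obp73a takes 47.6% of its sum early and 0.0% later.

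No cluster held members called in opposite directions, and differences between members of a cluster were not tested. In the 2R cluster, Obp56a and Obp56c were lower in both mutants, Obp56d was lower in ORE50/ORC4, and Obp56b between Obp56a and Obp56c was not called (log2 fold changes -0.20 and -0.36). Of the 3R cluster, Obp83ef and Obp83g were higher in both mutants and Obp83cd was not called (0.08 and -0.37). In the Obp99 genes, Obp99a was lower while its cluster partner Obp99c was not called. The nearest non-overlapping genes outside the family moved with a member called in both mutants in some cases and against it in others. Lpin, a phosphatidate phosphatase gene beside Obp44a, was lower in both (-0.36 and -0.42, edgeR adjusted p = 0.00258 and 0.00046). The noncoding gene lncRNA:CR44929, the nearest non-overlapping gene on one side of Obp83ef, was higher in both (0.57 and 1.95, edgeR adjusted p = 0.0347 and 4.25e-06). Obp83cd, which was not called, lies between it and Obp83ef. In a single mutant, Pbp49 (-0.38), Spn47C (-1.11) and lncRNA:CR44506 (-0.84) were lower in ORE50/ORC4 beside Obp44a, Obp47a and Obp56a, and ppk30 (-1.02) was lower in ORC4 beside Obp99a. Against the member, CG12909 was lower in both mutants beside Obp46a (-0.53 and -0.57), and polyph was higher in both beside Obp47a. Ndg (-0.19) was lower in ORC4 beside Obp46a, and BORCS7 (-0.87) in ORE50/ORC4 beside Obp57d. CG8768 (0.56) was higher in ORC4 beside Obp49a. Of all genes tested, 17.2% were lower and 15.5% higher in ORC4, and 27.0% each in ORE50/ORC4.

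Obp46a and Obp47a lie on the arm that carries lola, 169871 and 366632 bases from its span. Obp46a was among 3 genes within 500 kb of lola that rose at least 16-fold in both mutants, with CG12896 and polyph. They were 3.03% of the 99 genes tested in that window, against 0.458% of 11348 genes with a position in ORC4 and 0.52% in ORE50/ORC4. The share of called genes in the window was 31.3% in ORC4 and 62.6% in ORE50/ORC4, against 32.7% and 54.0% of these positioned genes. The window was chosen after the values were seen and no test was made. The gene polyph, an amino acid transporter gene next to Obp47a, was listed at 0 in every wild-type library and at 33.3 to 83.4 TPM in the mutants, where Obp47a was lower.

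Other genes of peripheral chemosensation were counted from a list of receptors and partner proteins. Of all 11431 genes tested, 32.7% were called in ORC4 and 54.0% in ORE50/ORC4. The counts for these short lists are descriptions, and nothing particular to chemosensory genes is read from them. Of 9 partner genes in the tables, 4 could be tested, and none was called in either mutant: Orco, the co-receptor of odorant receptors (0.03 and 0.03), Os-C (0.16 and 0.31), Est-6 (0.15 and 0.28) and Snmp2 (-0.24 and -0.10). None passed an unadjusted p of 0.05 in edgeR, and DESeq2 called 0 of them. Of 60 odorant receptor genes, 10 were tested, and 2 were lower and 1 higher in each mutant. Those called in both were Or19b (-5.40 and -5.81), Or82a (-1.51 and -1.35) and Or63a (0.97 and 0.86). DESeq2 called 2 odorant receptor genes in ORC4 and 3 in ORE50/ORC4.

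Of 66 ionotropic receptor genes, 12 were tested, with 2 lower and 4 higher in ORC4 and 1 lower and 4 higher in ORE50/ORC4. Ir76a (2.90 and 2.32), Ir87a (1.52 and 1.36), Ir40a, part of a humidity receptor (1.23 and 2.02), and the co-receptor Ir25a (0.39 and 0.30) were higher in both, and Ir41a was lower (-1.16 and -0.60). Of 60 gustatory receptor genes, 15 were tested, with 1 lower and 3 higher in ORC4 and 4 higher in ORE50/ORC4. Gr8a (3.93 and 3.94), Gr59e (2.39 and 2.23) and Gr59f (1.96 and 1.86) were higher in both. DESeq2 called 5 ionotropic receptor genes in ORC4 and 4 in ORE50/ORC4, and 4 gustatory receptor genes in each. Overlaps of receptor genes with other genes were not examined. None of the 20 CheA and CheB genes, which encode secreted proteins of gustatory sensilla, had enough counts to be tested.

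Markers of tissues known to make odorant-binding proteins were read beside these results, and their part in them was not tested. For these and the other tissue lists, the shares called over all genes were 32.7% in ORC4 and 54.0% in ORE50/ORC4. Of 4 tested genes for sense organ support cells and precursors, none was called in either mutant by edgeR or DESeq2. At an unadjusted p under 0.05, 0 passed in ORC4 and 2 in ORE50/ORC4, and the summed level was 31.3 to 43.5 TPM in late wild type, 35.0 to 43.8 in ORC4 and 29.4 to 48.9 in ORE50/ORC4, with Poxn at 0 in all groups. Beside Obp44a, of 6 glial genes 1 was lower in ORC4, and 1 was lower and 2 higher in ORE50/ORC4, with sums of 344 to 374, 282 to 368 and 284 to 300 TPM. Of 6 neuronal genes, 1 was lower in ORC4 and 4 in ORE50/ORC4, with sums of 254 to 286, 207 to 214 and 140 to 214 TPM. Of 5 tested fat body genes 1 was lower and 1 higher in each mutant, with sums of 290 to 368, 280 to 484 and 323 to 533 TPM.

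Among the other tissue lists, most midgut genes were called. Of its 6 genes, 4 were lower and 1 higher in ORC4, and 5 lower and 1 higher in ORE50/ORC4. The digestive protease genes Jon99Fi, Jon25Bii, betaTry and alphaTry were lower in both mutants, and GATAe, a transcription factor gene of the endoderm, was higher in both (log2 fold changes 0.29 in ORC4 and 0.37 in ORE50/ORC4). The summed level was 413 to 1200 TPM in late wild type, 62.5 to 100 in ORC4 and 51.1 to 58.0 in ORE50/ORC4, beside the lower Obp genes. Of 7 hemocyte genes, 1 was lower and 2 higher in ORC4, and 1 lower and 1 higher in ORE50/ORC4. Of 7 genes of the cuticle-forming epidermis, 1 was lower in ORC4, and 4 were lower and 1 higher in ORE50/ORC4. Of 3 tracheal genes 1 was higher in ORE50/ORC4, and of 5 muscle genes 1 was lower in each mutant.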

How the data were processed

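Polyadenylated RNA of whole embryos was sequenced in 16 libraries. The authors deposited, per library and gene, an estimated count and a TPM value, made with kallisto per the submitters' processing notes, which also name CASAVA 1.8.2 and dm6. The listed gene length equalled the whole span for 99.3% of the 17625 genes matched to the Ensembl annotation of BDGP6, whose 1-based coordinates are given. Nothing in the sources used here says that replicates came from separate collections, so p-values may measure technical spread. No pair of replicates agreed within sampling noise (chi-square per degree of freedom at least 5.29).

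Rounded estimated counts were tested with edgeR 4.0.16 under R 4.3.3 (quasi-likelihood test, TMM scaling, filterByExpr with a minimum of 10 counts, Benjamini-Hochberg over all genes, adjusted p under 0.05). The 13 libraries of 14 to 17 h formed a single fit and the 8 wild-type libraries another. Each SE given is approximate: the absolute log2 fold change divided by the square root of the F statistic of the test. The fitting code was tested on simulated data. Alternatives were limma 3.58.1 with 1 or 0.1 added to TPM before taking log2, DESeq2 1.42.0, RLE scaling, other count filters, an adjusted p under 0.01, fewer libraries, a replicate block, sums with overlapping genes and, added after seeing the data, depth class as a covariate.

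All members with at least 10 counts in a library are named, with every library's value for those called in a mutant and for the 3 most abundant in late wild type. Neighbours are named where called in the direction of a member called in both mutants, and chemosensory genes where called in both. Genes named beyond that rule, such as polyph, CG12896, the neighbours that moved against a member and the chemosensory partners, were chosen after their values were seen. The members and all gene lists were chosen with earlier results of these data known.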

Additional observations from a re-analysis of the deposited data

Results flagged for a closer look

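In 10 of 70 sets of libraries tested, a single library stood apart from the rest of its group in the level of an Obp gene, where chance gives about 1 in 20. Late wild-type replicate 2 was involved 3 times, as the lowest for Obp28a (116 TPM) and the highest for Obp99a (226 TPM) and Obp99b (5.31 TPM). Late wild-type replicate 3 was highest for Obp57d (11.9 TPM), and replicate 5 was lowest for Obp58d, at 0 TPM. ORC4 replicate 3 was highest for Obp50e (5.63 TPM) and Obp99d (4.25 TPM). ORC4 replicate 4 was lowest for Obp56c (0.739 TPM) and highest for Obp99b (5.61 TPM). ORE50/ORC4 replicate 2 was highest for Obp18a (29.9 TPM).

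The mutants differed from each other, by a direct edgeR contrast, in Obp56d (log2 fold change -1.34, ORE50/ORC4 over ORC4, adjusted p = 0.00569) and in Obp83g (0.81, adjusted p = 0.000581). In both cases every ORE50/ORC4 library lay on the same side of every ORC4 library. Depth and genotype cannot be told apart in this contrast.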

How the results depend on the processing

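Directions were stable for called values of single genes, with 1836 recomputed values on the same side of the threshold, 57 losing and 43 gaining a call, and 6 turning sign, where a sign was compared only if either value was called. All 6 turned when a member was summed with its overlapping genes: Obp99c (-0.38 in ORC4, -0.40 in ORE50/ORC4), Obp83ef (-0.09 in ORE50/ORC4), and between the stages Obp47b (-0.57), Obp44a (-0.12) and Obp73a (0.30 on the log2 scale). These sums include reads of the other gene by construction. Calls of Obp18a, Obp44a, Obp46a, Obp49a, Obp56a, Obp56c and Obp57d held in both mutants under every alternative run. The 1836 values include genes that stayed uncalled and the calls between the stages, and some calls in a mutant were less stable. The call of Obp83g in ORC4 held in 11 of 21 alternative runs. In ORE50/ORC4, that of Obp28a held in 11 of 21, that of Obp47b in 13 of 21 and that of Obp47a in 9 of 15.

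The count of lower members in ORE50/ORC4 against wild type (10) was 5 against wild-type replicates 5 and 6 only, 5 at an adjusted p under 0.01, and 7 to 11 with 1 library left out. The counts between the mutants (1 lower, 1 higher) were the least stable: 2 lower and 2 higher with DESeq2, 4 lower with limma on either TPM scale, 2 higher with only those groups, 3 higher with depth class as a covariate, and 1 to 5 lower and 1 to 2 higher with 1 library left out. The cause of these shifts was not tested.

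The libraries were not treated as paired, since no label ties the numbers to a shared collection and not every same-numbered pair had deviations correlated over 0.1. The correlations ran from -0.085 to 0.327, and those of replicates 2 and 3 at 14 to 17 h were all over 0.1. With the replicate number as a block over shared numbers, the comparison of the mutants gave 5 lower and 3 higher members, and the same libraries with no block gave 2 and 2. ORE50/ORC4 against wild type had 10 lower members with the block and 6 without it. For ORC4 both fits gave 5 lower and 4 higher members, and between the stages both gave 3 lower and 20 higher.

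Depth limits the lowest members: with 10202584 counts, 3 counts are 0.294 CPM, and 21 of the 51 genes never reached 10 counts.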
